A study of Homo sapiens with 36 samples.

Results

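YTHDF2 and YTHDF3 were each immunoprecipitated from the same kind of cell, and the RNA recovered with one was set against the RNA recovered with the other. The comparison used 6 of the 36 sequencing libraries of the series, 3 of RNA pulled down with endogenous YTHDF2 by its antibody (RNA immunoprecipitation, RIP) and 3 of RNA pulled down in the same way with endogenous YTHDF3. Libraries were chosen by their labels alone, and no input library was used. The cells of all 6 were HEK293T, a line of human embryonic kidney origin, of the YTHDF1-ADAR genotype, whose YTHDF1-ADAR fusion was switched on by 24 h of doxycycline (1 ug/mL). Both arms therefore carried the fusion beside the endogenous YTHDF proteins, and no arm lacked it. The labels do not say whether the replicates were separate cultures, and the spread that the p-values rest on is that between these samples and may be technical.

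YTHDF1, YTHDF2 and YTHDF3 are cytoplasmic proteins that bind N6-methyladenosine (m6A), the most common internal modification of mRNA, through a shared YTH domain. YTHDF2 is known for recruiting the CCR4-NOT deadenylase and promoting the decay of m6A-containing mRNA. YTHDF3 has been linked to both translation and decay, and how far the 3 proteins share their targets has been debated. ADAR converts adenosine to inosine, and RNAs met by the fusion therefore carry edited sites.

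Total counts were 27.2 M, 26.6 M and 15.9 M in YTHDF2 RIP replicates 1 to 3, and 28.4 M to 37.5 M in YTHDF3 RIP. YTHDF2 RIP replicate 3, the shallowest, stood apart in composition as well. Protein-coding genes held 82.8% of its counts against 90.0 to 91.2% in the other 5, microRNA genes held 5.97% against 0.281 to 1.1%, and mitochondrially encoded mRNAs held 0.561% against 0.702 to 1.19%. Olfactory receptor genes, which these cells hardly use, summed to 18.3 CPM (counts scaled to library size) in it and to 6.09 to 8.89 CPM in the others. In a principal component analysis the first component (47.0% of the variance) separated the 2 antibodies, from -71.0 to -26.7 for YTHDF2 RIP and from 42.0 to 53.0 for YTHDF3 RIP. The second component (34.0%) set replicate 3 of both antibodies, at -63.9 and -43.9, apart from the other 4 libraries, at 6.01 to 47.5. Fold changes and list counts are therefore given with and without YTHDF2 RIP replicate 3. Where the other 5 libraries were left out in turn, counts are given in the order YTHDF2 RIP replicates 1 and 2, then YTHDF3 RIP replicates 1, 2 and 3. The 8 genes that mark HEK293 cells summed to 1527 to 3027 CPM with YTHDF2 and 1689 to 2354 CPM with YTHDF3. Blood markers summed to 4.44 to 6.02 and 3.70 to 4.90 CPM with PTPRC, HBB, HBG1 and CD3E at 0, epithelial and hepatocyte markers to 6.37 to 7.40 and 5.87 to 7.24 CPM with KRT5 at 0, and fibroblast markers to 39.3 to 45.5 and 28.8 to 34.6 CPM with FAP at 0.

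MIR3648 is shown because its gene copies held most of the counts on microRNA genes in that library. They took 4.03% of the counts of YTHDF2 RIP replicate 3, against 0.684% and 0.527% in replicates 1 and 2, and 0.125%, 0.0983% and 0.597% in YTHDF3 RIP replicates 1 to 3. Ribosomal RNA genes held 0.444% of the counts of YTHDF2 RIP replicate 3, 0.0646% and 0.124% in replicates 1 and 2, and 0.0101 to 0.0310% in YTHDF3 RIP. Whether reads counted on MIR3648 came from the mature miRNA or from longer RNA was not tested. The mature miRNA, from RefSeq on GRCh38.p14 at chr21:8987026-8987046 on the plus strand, is printed 5′ to 3′ with its seed in capitals.
hsa-miR-3648: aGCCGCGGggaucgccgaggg
The library in which MIR3648 was highest was thus YTHDF2 RIP replicate 3, and the lowest were YTHDF3 RIP replicates 1 and 2. The gene copies MIR3648-1 and MIR3648-2 did not pass the test, with log2 fold changes of 2.67 ± 0.91 (adjusted p = 0.0856) and 2.79 ± 0.92 (adjusted p = 0.0770), and 1.28 ± 0.74 and 1.40 ± 0.75 without that library. Reads that match both copies count for both, so these are not separate measurements.

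The question was which RNAs were recovered relatively more with YTHDF2 and which with YTHDF3. Fold changes are given as log2 of YTHDF2 RIP over YTHDF3 RIP ± standard error, after scaling of the libraries by TMM, so that they are shares of each RIP and not absolute amounts bound. A gene was called where edgeR's quasi-likelihood test gave a p under 0.05 after Benjamini-Hochberg adjustment. Of 23940 genes tested, 3623 were called (15.1%), 2181 higher with YTHDF2 (9.11%) and 1442 higher with YTHDF3 (6.02%). Changes of at least 2-fold were called for 1109 genes higher with YTHDF2 (4.63%) and 491 higher with YTHDF3 (2.05%). The median over all genes tested was 0.06. Among called genes, 3622 had no overlap between the 3 YTHDF2 and the 3 YTHDF3 libraries and 1 had; over all genes tested 8989 had none (37.5%). Scaling by total counts gave 3940 calls of which 45.5% were higher with YTHDF2, against 60.2% by TMM.

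Without YTHDF2 RIP replicate 3, 5667 genes were called (23.3%), 3517 higher with YTHDF2 (14.5%) and 2150 higher with YTHDF3 (8.84%). Of the genes called with all 6 libraries, 3561 (14.9% of those tested) were called in the same direction without it, 2154 higher with YTHDF2 and 1407 higher with YTHDF3, and 0 changed sign. The other libraries moved the count the opposite way: 857 genes were called without YTHDF2 RIP replicate 1, 1188, 810 and 1561 without YTHDF3 RIP replicates 1, 2 and 3, and 2656 without YTHDF2 RIP replicate 2. With the replicate number as a block the count was 6327, of which 3751 were higher with YTHDF2 and 2576 with YTHDF3. The block kept 3620 of the 3623 calls.

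**Figure D1:**
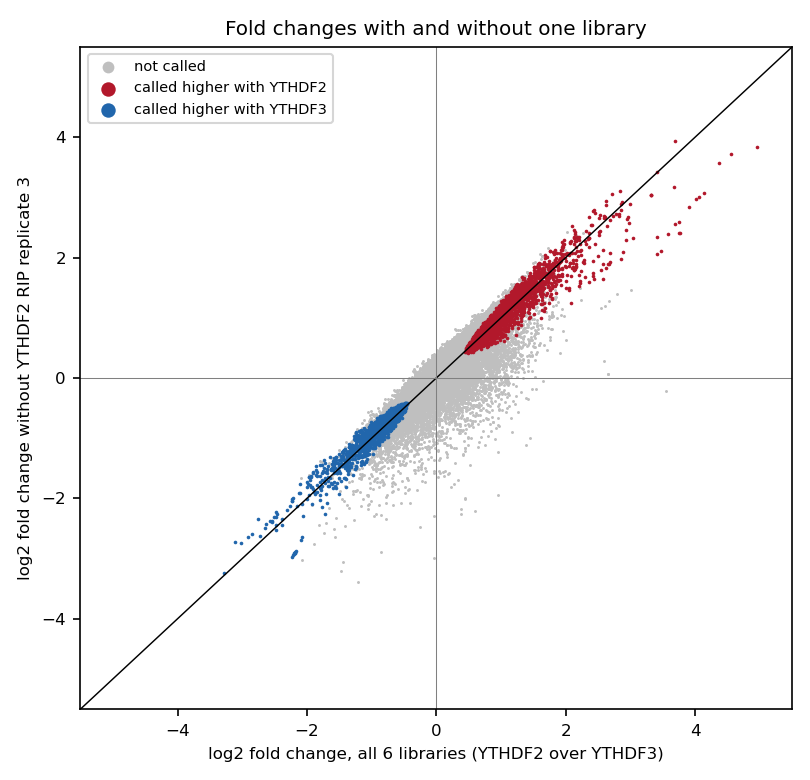
Log2 fold change (YTHDF2 over YTHDF3) of each gene with all 6 libraries, on the horizontal axis, and without YTHDF2 RIP replicate 3, on the vertical axis, with genes called on all 6 libraries in red or blue and the line of equal values in black. None of the 3623 called genes changes sign, and 3561 of them were called in the same direction on both axes.

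The 12 protein-coding genes with the highest ratio were ATP5MG, CD63, SEC11A, MRFAP1, H4C2, MFSD1, COPRS, DDIT4, H4C8, H4C1, H2AC14 and ATP6V0B, with log2 fold changes from 2.37 to 2.99. They were taken among genes called with and without YTHDF2 RIP replicate 3 whose mean log2 CPM was at least 4. The rule also required that YTHDF2 and YTHDF3 libraries not overlap, here and for the lowest and the noncoding genes named by rank. ATP5MG (ENSG00000167283, GRCh38 chr11:118401606-118431496) codes for subunit g of the mitochondrial ATP synthase. It was at 65.9, 50.7 and 70.7 CPM in the YTHDF2 RIP libraries and at 8.01, 9.77 and 5.8 CPM in the YTHDF3 RIP libraries. Every YTHDF2 library was thus several times above every YTHDF3 library, by 2.99 ± 0.23 on the log2 scale (adjusted p = 0.00352), and by 2.89 ± 0.22 without YTHDF2 RIP replicate 3. CD63 (ENSG00000135404, GRCh38 chr12:55725323-55729707), a tetraspanin of late endosomes and exosomes, was at 142, 91.7 and 227 CPM against 21.8, 21.3 and 15.6 CPM. Its highest library was YTHDF2 RIP replicate 3, its lowest YTHDF3 RIP replicate 3, and its fold change of 2.97 ± 0.33 (adjusted p = 0.00383) was 2.58 ± 0.22 without the former.

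SEC11A (ENSG00000140612, GRCh38 chr15:84669538-84716460), a catalytic subunit of the signal peptidase of the endoplasmic reticulum, was at 125, 81.1 and 222 CPM with YTHDF2 and at 21.7, 19.3 and 15.0 CPM with YTHDF3. The groups were far apart, with a fold change of 2.93 ± 0.36 (adjusted p = 0.00437), or 2.46 ± 0.22 without YTHDF2 RIP replicate 3. MRFAP1 was at 1228, 864 and 1377 CPM against 211, 168 and 108 CPM (2.83 ± 0.30, adjusted p = 0.00352; 2.69 ± 0.28 without that library). DDIT4, a stress-induced inhibitor of mTORC1 signalling, was at 397, 347 and 794 CPM against 89.6, 83.5 and 99.8 CPM (2.49 ± 0.32, adjusted p = 0.00456; 2.03 ± 0.15 without that library). For DDIT4 replicate 3 of YTHDF2 RIP was the highest by far, and the other 2 YTHDF2 libraries were still above all 3 YTHDF3 libraries. Another annotated gene overlaps 41.2% of its exonic bases, so its counts are uncertain. MFSD1, a lysosomal membrane transporter, ATP6V0B, a subunit of the vacuolar proton pump, and COPRS, a partner of the arginine methyltransferase PRMT5, had fold changes of 2.58 ± 0.33, 2.37 ± 0.18 and 2.53 ± 0.28, and 2.13 ± 0.19, 2.32 ± 0.18 and 2.45 ± 0.28 without YTHDF2 RIP replicate 3.

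At the other end, the 12 lowest protein-coding genes were UCP2, APOOL, C5orf51, AP1S3, MYADM, SIX2, ZNF391, VAMP2, TPP1, LSM12, ATP1B2 and USB1, with log2 fold changes from -2.90 to -1.94. UCP2 (ENSG00000175567, GRCh38 chr11:73974672-73982843), an uncoupling protein of the mitochondrial inner membrane, was at 28.4, 31.7 and 14.8 CPM with YTHDF2 and at 192, 191 and 180 CPM with YTHDF3. All YTHDF3 libraries were close together and well above all YTHDF2 libraries (-2.90 ± 0.28, adjusted p = 0.00352; -2.64 ± 0.15 without YTHDF2 RIP replicate 3). APOOL (ENSG00000155008, GRCh38 chrX:85003877-85093316), a protein of the complex that shapes mitochondrial cristae, was at 26.8, 22.8 and 16.8 CPM against 120, 118 and 148 CPM (-2.54 ± 0.21, adjusted p = 0.00352; -2.37 ± 0.17 without that library). Membrane proteins were thus at both ends of the ranking.

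AP1S3, a small subunit of the clathrin adaptor AP-1, was at 10.8, 9.08 and 11.3 CPM with YTHDF2 and at 60.9, 51.0 and 61.3 CPM with YTHDF3 (-2.47 ± 0.16, adjusted p = 0.00352; -2.53 ± 0.17 without YTHDF2 RIP replicate 3), and 32.3% of its exonic bases overlap another gene. MYADM, a membrane protein, was at 22.8, 22.1 and 13.5 CPM against 101, 104 and 117 CPM (-2.46 ± 0.22; -2.25 ± 0.15 without that library). SIX2, a homeobox transcription factor of kidney progenitor cells, was at 22.2, 20.5 and 12.1 CPM against 105, 79.8 and 72.5 CPM (-2.23 ± 0.26; -2.0 ± 0.19 without it). In each of these genes YTHDF2 and YTHDF3 libraries did not overlap, as the choice of genes required. VAMP2, a vesicle SNARE, TPP1, a lysosomal peptidase, and USB1, an exonuclease that trims U6 small nuclear RNA, followed at -2.10 ± 0.26, -2.0 ± 0.28 and -1.94 ± 0.30, and at -1.92, -1.72 and -1.64 without YTHDF2 RIP replicate 3. ATP1B2, a beta subunit of the sodium pump, was at -1.95 ± 0.40 (-1.69 without YTHDF2 RIP replicate 3) and missed the threshold without YTHDF2 RIP replicate 1 (adjusted p = 0.0616) or YTHDF3 RIP replicate 2 (adjusted p = 0.0504). In the authors' deposited table ATP5MG had log2 fold changes of 0.34 for YTHDF2 and -2.63 for YTHDF3, and UCP2 had -1.02 and 1.60. Those values are given per antibody without a cell line or control named, so they need not rest on the same libraries.

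**Figure D2:**
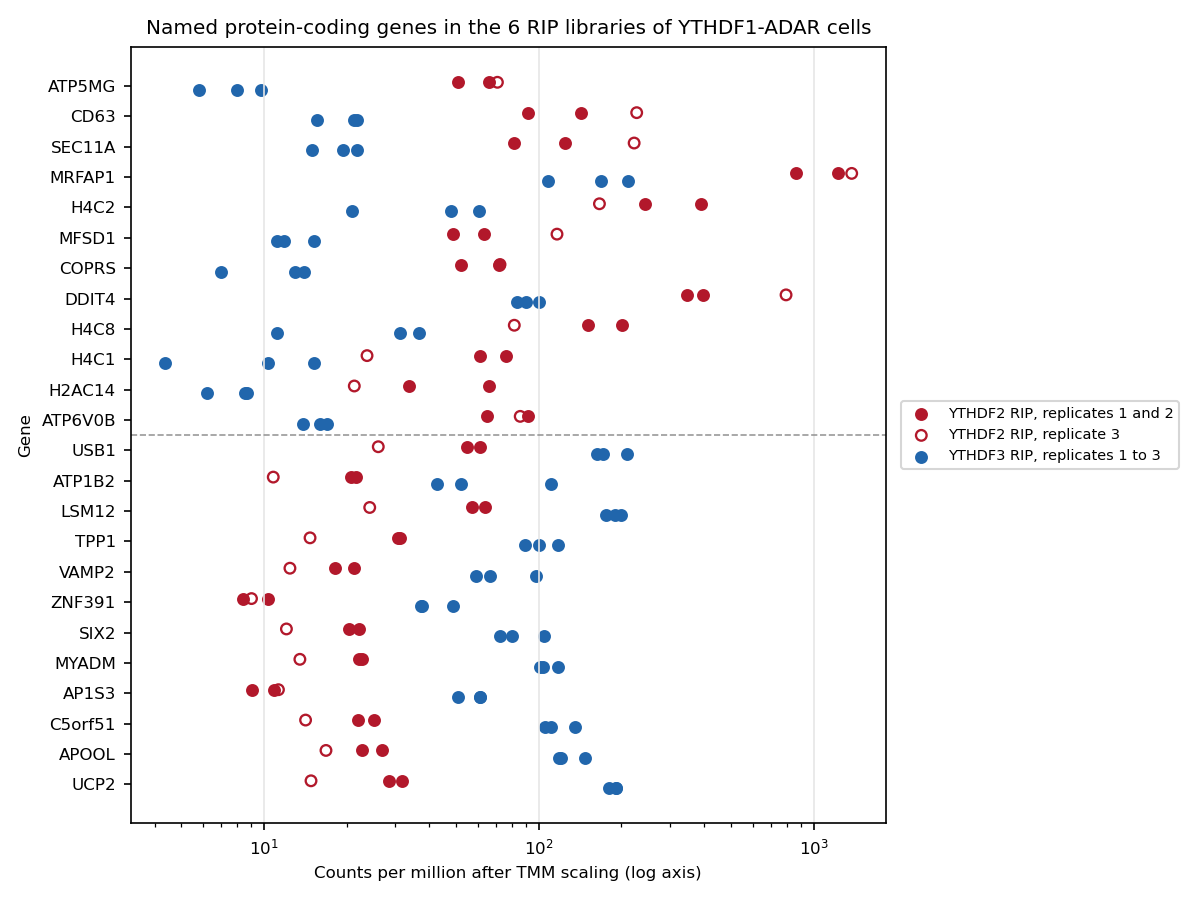
CPM after TMM scaling (log axis) of the 12 highest and the 12 lowest protein-coding genes in each of the 6 libraries, with YTHDF2 RIP in red (replicate 3 hollow) and YTHDF3 RIP in blue. In all 24 genes the YTHDF2 and YTHDF3 points do not overlap, which was a condition of their choice. Above the dashed line the red points lie to the right.

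Counts in the protein-coding gene lists are to be read beside all 14798 protein-coding genes tested. Of these, 11.2% were called higher with YTHDF2 and 7.59% higher with YTHDF3 with all 6 libraries. List counts of the other runs are to be read beside the calls of the same run over all genes. These were 14.5% and 8.84% without YTHDF2 RIP replicate 3, and 3751 and 2576 of 23940 genes with the block. With any other library left out, 810 to 2656 genes were called in either direction. Replication-dependent histone genes had the highest median of the 36 gene lists. Their mRNAs end in a stem-loop in place of a poly(A) tail, have no introns and are made in S phase. Of 50 tested, 15 were called higher with YTHDF2 and 0 higher with YTHDF3, with a median of 1.09 beside 0.06 over all genes. Without YTHDF2 RIP replicate 3 the counts were 39 and 0 (median 1.43), and with the replicate block 27 and 0. With the other 5 libraries left out in turn 2, 7, 5, 2 and 3 were called higher with YTHDF2 and 0 with YTHDF3, with medians from 0.72 to 1.15. Most calls fell among H4 genes, with 9 of 11 called (median 1.76), while 4 of 13 H2A, 1 of 12 H2B, 1 of 10 H3 and 0 of 4 H1 genes were called (medians 1.09, 0.89, 1.5 and 0.28). Without YTHDF2 RIP replicate 3 these became 10 of 11 H4, 11 of 13 H2A, 10 of 12 H2B, 7 of 10 H3 and 1 of 4 H1 genes. Summed over the list, histone mRNAs took 7987, 10670 and 3412 CPM with YTHDF2 and 4026, 3189 and 2796 CPM with YTHDF3. By this sum YTHDF2 RIP replicate 3 lay below YTHDF3 RIP replicate 1, so the groups overlapped through that library.

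H4C2 (ENSG00000278705, GRCh38 chr6:26026815-26027252) was at 390, 244 and 166 CPM with YTHDF2 and at 60.7, 47.8 and 20.9 CPM with YTHDF3 (2.63 ± 0.44, adjusted p = 0.00862; 2.88 ± 0.39 without YTHDF2 RIP replicate 3). H4C8 was at 201, 151 and 81.5 CPM against 36.5, 31.3 and 11.1 CPM (2.45 ± 0.47, adjusted p = 0.0136; 2.74 ± 0.40 without that library). For both, replicate 3 was the lowest library of either antibody, and no overlap between the groups was a condition of their choice. H4C8 as annotated for counting has 3 exon blocks and 2163 exonic bases, so its counts need not come from an intronless mRNA alone. H4C1 (2.42 ± 0.52) and H2AC14 (2.37 ± 0.39) were at 2.77 and 2.67 without YTHDF2 RIP replicate 3. One H4 gene, H4C9, named after its value was seen, lay on the YTHDF3 side (-0.28 ± 0.30, adjusted p = 0.557). H4C8 missed the threshold without YTHDF2 RIP replicate 1 (adjusted p = 0.0616) or YTHDF3 RIP replicate 2 (0.0585), and H4C1 without these (0.0830 and 0.0853) or YTHDF3 RIP replicate 3 (0.0595). Histone genes of one class are close copies, and reads that match several were counted for each.

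The promoters of H4C2 and H4C8 are shown because these were the H4 genes with the highest fold changes, 9 of the 11 having been called in one direction. Printed 5′ to 3′ are the 150 bases before each gene's start, from RefSeq on GRCh38.p14, minus strand, at chr6:26027284-26027433 and chr6:26285535-26285684, with TATAA and GGTCC, on either strand, in capitals.
H4C2: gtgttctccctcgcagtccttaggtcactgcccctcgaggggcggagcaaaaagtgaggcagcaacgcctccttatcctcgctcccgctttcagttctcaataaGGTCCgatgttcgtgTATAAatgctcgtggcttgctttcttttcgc
H4C8: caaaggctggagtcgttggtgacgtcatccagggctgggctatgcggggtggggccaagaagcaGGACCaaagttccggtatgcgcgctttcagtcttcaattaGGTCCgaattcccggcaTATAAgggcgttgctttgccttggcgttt
In both, GGTCC starts 46 bases before the RefSeq start and TATAA 31 or 29 bases before it, and the 2 do not overlap. The H4C8 gene as counted spans chr6:26277609-26285638, so its printed window lies partly inside it. TATAA was in 12.1% of 35116 RefSeq promoter windows of this length, in 78% of 50 windows of the histone genes tested (46 of 50 genes matched) and in 66.7% of 9 H4 windows. GGTCC was in 27.2%, 32% and 100% of these, and CCAAT in 23.5%, 84% and 11.1%. The motifs were chosen after the sequences had been seen, and the share is a description of these windows only.

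Messages of the cytosolic ribosome and of mitochondrial respiration had medians on the YTHDF2 side. Of 86 cytosolic ribosomal protein genes, 19 were called higher with YTHDF2 and 0 with YTHDF3 (median 0.46). Without YTHDF2 RIP replicate 3 the counts were 51 and 0 (median 0.70), and with the block 34 and 2. With the other 5 left out in turn they were 2 and 0, 6 and 6, 3 and 0, 2 and 0, and 6 and 0, with medians from 0.22 to 0.48. The list's median level relative to its mean over the 6 libraries (log2) was -0.33 in YTHDF2 RIP replicate 3, below the -0.30 to -0.13 of the YTHDF3 libraries, and the groups thus overlapped through that library. By subunit, 10 of 53 large-subunit and 9 of 33 small-subunit genes were called. RPS15A, a small-subunit protein, was at 109, 99.7 and 101 CPM with YTHDF2 and at 49.1, 49.1 and 52.6 CPM with YTHDF3 (1.04 ± 0.13, adjusted p = 0.00438). RPL30, a large-subunit protein often used as a control without m6A, was at 51.2, 42.3 and 42.4 CPM against 23.6, 21.2 and 20.7 CPM (1.05 ± 0.15, adjusted p = 0.00555). In both genes every YTHDF2 library was above every YTHDF3 library, and without YTHDF2 RIP replicate 3 the fold changes were 1.06 ± 0.13 and 1.1 ± 0.15. The antisense gene RPL30-AS1 (1.07) overlaps 21.8% of the exonic bases of RPL30, so the counts of RPL30 are uncertain.

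Of 80 nuclear genes for oxidative phosphorylation, 29 were called higher with YTHDF2 and 2 with YTHDF3 (median 0.56), against 44 and 2 without YTHDF2 RIP replicate 3 (median 0.75) and 42 and 5 with the block. With the other 5 libraries left out in turn they were 10 and 0, 20 and 3, 12 and 0, 13 and 0, and 13 and 0. By complex, the calls towards YTHDF2 were 14 of 38 complex I, 1 of 4 complex II, 3 of 9 complex III, 6 of 11 complex IV and 5 of 18 ATP synthase genes, and the median of complex II was -0.13. UQCRFS1, the Rieske iron-sulfur protein of complex III, was at 128, 97.6 and 127 CPM against 37.5, 33.3 and 25.2 CPM (1.88 ± 0.20, adjusted p = 0.00352; 1.82 ± 0.20 without that library). The exceptions were ATP5F1C of the ATP synthase (-0.85, and -0.63 without YTHDF2 RIP replicate 3) and UQCRC2 of complex III (-0.60 and -0.51), which were called higher with YTHDF3 and were picked out after their values had been seen.

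The 13 mRNAs encoded in the mitochondrial genome, which are made and kept inside the organelle, gave 0 calls in either direction (median 0.00). The 3 with the smallest p were MT-ND3 (0.75 ± 0.30, adjusted p = 0.127), MT-CO3 (0.87 ± 0.35, 0.131) and MT-CO2 (0.62 ± 0.39, 0.320). Without YTHDF2 RIP replicate 3, 2 were called higher with YTHDF2 (median 0.33), MT-CO3 at 1.19 ± 0.20 (adjusted p = 0.00520) and MT-CO2 at 0.96 ± 0.24 (0.0217). MT-ND3 was called with the replicate block (0.84, adjusted p = 0.0473) and without YTHDF3 RIP replicate 3 (0.0207).

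Among nuclear genes for mitochondrial ribosomal proteins, 19 of 78 were called higher with YTHDF2 and 4 with YTHDF3 (median 0.34), against 34 and 4 without YTHDF2 RIP replicate 3 (median 0.48) and 30 and 6 with the block. With the other 5 left out in turn they were 6 and 0, 12 and 4, 8 and 0, 7 and 0, and 9 and 2. MRPL23, of the large subunit, was at 49.0, 38.2 and 31.0 CPM against 9.71, 9.71 and 6.22 CPM (2.20 ± 0.24, adjusted p = 0.00383; 2.35 ± 0.22 without that library). MRPL14 (1.94 ± 0.24, and 2.12 without it) and MRPS17 (1.44 ± 0.18 and 1.43) were likewise called. Another gene overlaps 22.4% of the exonic bases of MRPS17. Of proteasome subunits, 13 of 35 were called higher with YTHDF2 and 1 with YTHDF3 (median 0.47; 18 and 1, median 0.60, without YTHDF2 RIP replicate 3; 8 to 11 and 1 with the others left out). They included 7 of 15 core and 6 of 20 regulatory-particle genes. PSMB5, the chymotrypsin-like core subunit, was at 110, 82.5 and 67.6 CPM against 26.7, 23.3 and 18.9 CPM (1.92 ± 0.22, adjusted p = 0.00395; 2.07 ± 0.19 without it), and the one exception, PSMD11 of the lid, named after its value was seen, was at -1.86 ± 0.27 (adjusted p = 0.00606; -1.62 without it).

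Endoplasmic reticulum translocon, TRAP complex and TMED cargo receptor genes gave 10 of 33 called higher with YTHDF2 and 1 with YTHDF3 (median 0.14). Without YTHDF2 RIP replicate 3 the counts were 14 and 3. With the others left out in turn they were 2 and 1, 7 and 1, 5 and 1, 5 and 1, and 6 and 1. The cargo receptors TMED9 and TMED10 differed in direction. TMED9 was at 344, 274 and 357 CPM with YTHDF2 and at 94.6, 90.1 and 58.1 CPM with YTHDF3 (2.01 ± 0.22, adjusted p = 0.00383), while TMED10 was at 101, 89.5 and 107 CPM against 219, 218 and 287 CPM (-1.28 ± 0.17, adjusted p = 0.00483). Neither overlapped between antibodies, and without YTHDF2 RIP replicate 3 the fold changes were 1.94 ± 0.22 and -1.34 ± 0.18.

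Transcriptional coregulators and zinc finger genes had medians on the YTHDF3 side. Of 51 chromatin and transcription coregulators, 0 were called higher with YTHDF2 and 9 higher with YTHDF3 (median -0.35), against 0 and 10 without YTHDF2 RIP replicate 3 (median -0.23) and 0 and 16 with the block. With the other 5 libraries left out in turn 1, 11, 1, 0 and 3 were called higher with YTHDF3 and 0 with YTHDF2. MED14, of the Mediator complex, was at 119, 112 and 92.4 CPM with YTHDF2 and at 186, 192 and 217 CPM with YTHDF3 (-0.88 ± 0.16, adjusted p = 0.0105). ASXL2, a Polycomb-related factor, was at 100, 112 and 83.4 CPM against 173, 179 and 176 CPM (-0.84 ± 0.15, adjusted p = 0.0117). Neither overlapped between antibodies, and they were -0.78 ± 0.15 and -0.73 ± 0.14 without YTHDF2 RIP replicate 3. NCOA3, a nuclear receptor coactivator, was at -0.78 ± 0.15, and -0.80 without it. The calls were lost without YTHDF3 RIP replicate 2 for MED14, ASXL2 and NCOA3 (adjusted p = 0.0565, 0.0682 and 0.0529), without YTHDF3 RIP replicate 1 for MED14 and ASXL2 (0.0511 and 0.0599) and without YTHDF2 RIP replicate 1 for ASXL2 and NCOA3 (0.0681 and 0.0699).

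Of 433 ZNF zinc finger genes, 20 were called higher with YTHDF2 and 54 with YTHDF3 (median -0.19), against 38 and 70 without YTHDF2 RIP replicate 3 (median -0.14) and 40 and 88 with the block. With the other 5 left out in turn they were 4 and 11, 12 and 40, 6 and 17, 5 and 14, and 9 and 17. ZNF391 was at 10.4, 8.41 and 9.0 CPM with YTHDF2 and at 37.7, 37.4 and 48.8 CPM with YTHDF3 (-2.15 ± 0.18, adjusted p = 0.00352; -2.13 ± 0.19 without that library). ZNF100 was at 8.06, 8.45 and 9.12 CPM against 24.0, 22.7 and 27.7 CPM (-1.54 ± 0.16, adjusted p = 0.00352; -1.58 ± 0.16 without it), and ZNF280B was at -1.29 ± 0.14 (-1.22 without it). In each, all YTHDF3 libraries were at least 2-fold above all YTHDF2 libraries. The signs of the medians of the histone, ribosomal, oxidative phosphorylation, proteasome, coregulator and zinc finger lists were kept under scaling by DESeq2 size factors, by total counts and by mitochondrial mRNAs, but the last of these moved the median of all genes to 0.18 and left 335 calls. Under it the calls were 9 and 0 for histones, 0 and 0 for ribosomal proteins, 8 and 0 for oxidative phosphorylation, 2 and 1 for the proteasome, 0 and 0 for coregulators and 0 and 1 for zinc finger genes.

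**Figure D3:**
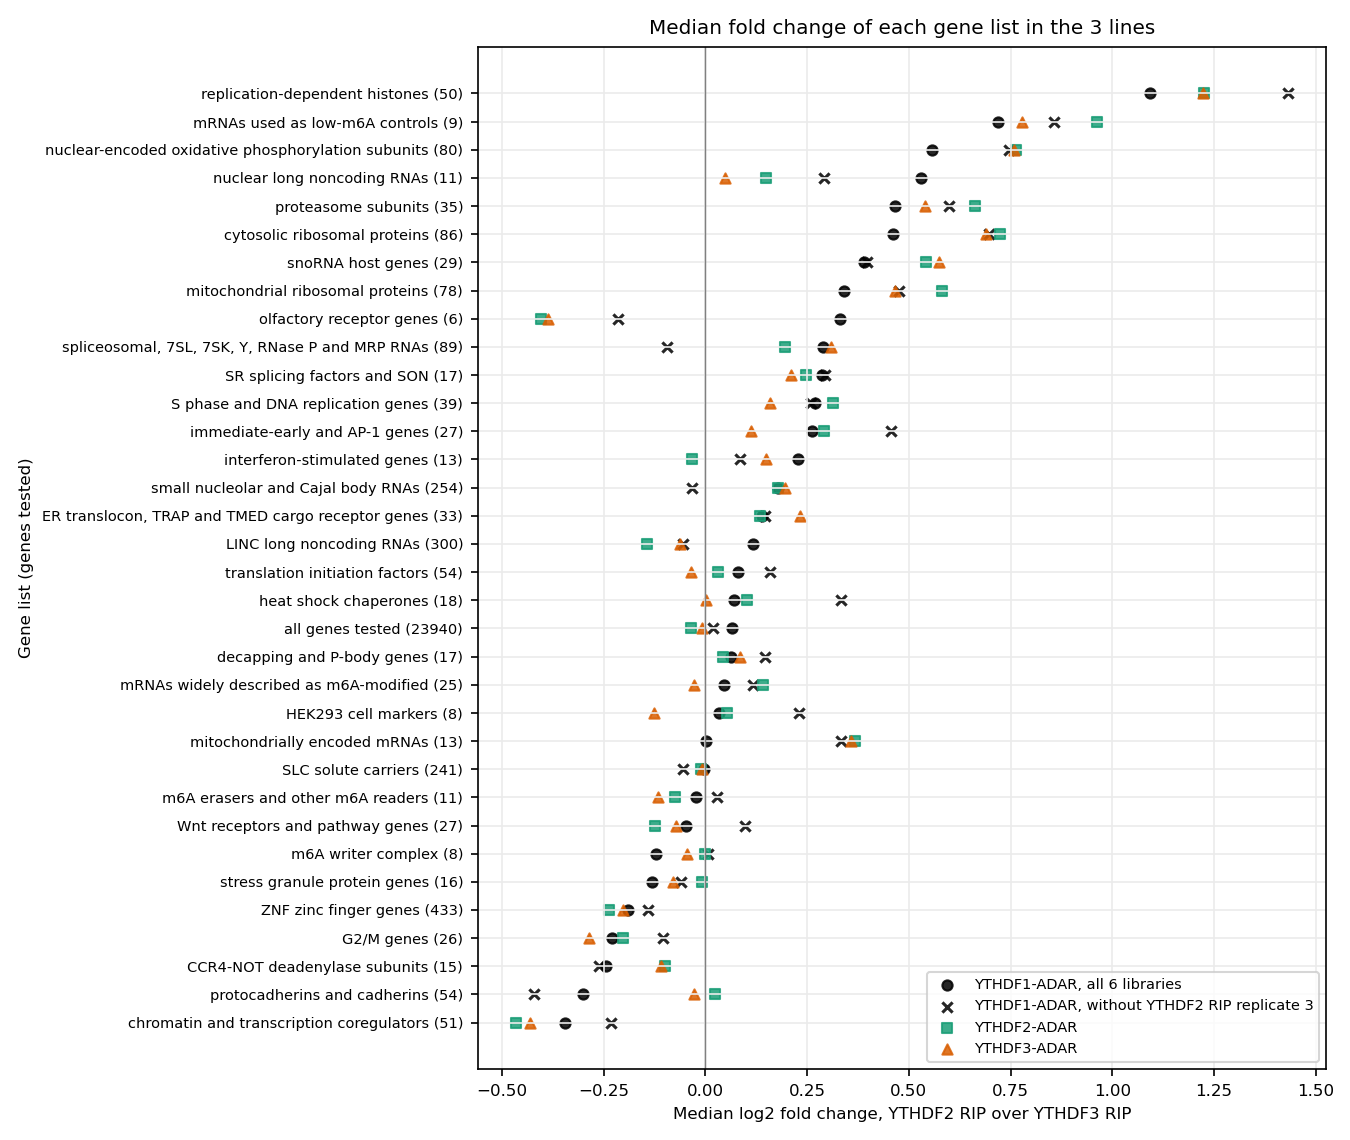
Median log2 fold change of each gene list with at least 5 genes tested (number in parentheses) in YTHDF1-ADAR cells with all 6 libraries (circles) and without YTHDF2 RIP replicate 3 (crosses), and of the same contrast in YTHDF2-ADAR (squares) and YTHDF3-ADAR cells (triangles). Histones lie farthest to the right, at 1.09 in YTHDF1-ADAR cells, and coregulators at the left end, at -0.35.

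Genes of the m6A pathway were called in both directions. Their shares are to be read beside 15.1% over all genes, and 11.2% and 7.59% (higher with YTHDF2 and YTHDF3) over protein-coding genes. YTHDF2 mRNA was at 293, 276 and 350 CPM with YTHDF2 and at 199, 177 and 200 CPM with YTHDF3, without overlap (0.67 ± 0.16, adjusted p = 0.0250; 0.57 ± 0.14 without YTHDF2 RIP replicate 3). It missed the threshold without YTHDF2 RIP replicate 1 (adjusted p = 0.119) or any YTHDF3 RIP library (0.0665 to 0.135), and under scaling by total counts. YTHDF3 mRNA was at 70.0, 71.3 and 66.8 CPM against 88.6, 79.9 and 101 CPM (-0.37 ± 0.14, adjusted p = 0.116), and YTHDF1, whose sequence the fusion also carries, was at 1308, 1461 and 908 CPM against 1429, 1406 and 1162 CPM (-0.12 ± 0.22, adjusted p = 0.748), and they were at -0.34 and 0.06 without YTHDF2 RIP replicate 3. ADARB1, which codes for ADAR2, had -0.19 ± 0.23 and ADAR -0.49 ± 0.18 (adjusted p = 0.610 and 0.10; 0.01 and -0.36 without YTHDF2 RIP replicate 3). Among 8 writer-complex genes, METTL14, the partner of the METTL3 methyltransferase, was called higher with YTHDF3 (-0.77 ± 0.15, adjusted p = 0.0133; -0.71 ± 0.15 without YTHDF2 RIP replicate 3), and METTL3 (-0.35 ± 0.17, 0.194; -0.20 without it) and RBM15 (0.38 ± 0.17, 0.160; 0.46 without it) were not. The list gave 0 and 1 calls with and without that library (medians -0.12 and 0.01). METTL14 missed the threshold without YTHDF2 RIP replicate 1 or YTHDF3 RIP replicate 1 or 2 (0.0747, 0.0612 and 0.0670).

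Of 11 erasers and other readers, HNRNPA2B1 (0.66 ± 0.16, adjusted p = 0.0278; 0.73 without YTHDF2 RIP replicate 3) was called higher with YTHDF2 and IGF2BP2 (-0.72 ± 0.17, 0.0260; -0.62) higher with YTHDF3. With the block the counts were 2 and 3, PRRC2A being added (-0.71, 0.0372). Both calls were lost without YTHDF2 RIP replicate 1 (0.177 and 0.119), and without any YTHDF3 RIP library (0.0965 to 0.168 and 0.0627 to 0.108). That of HNRNPA2B1 was also lost without YTHDF2 RIP replicate 2 (0.0639). mRNAs widely described as m6A-modified gave 2 and 1 calls of 25 (median 0.04, and -0.06 under scaling by total counts; 4 and 1 without YTHDF2 RIP replicate 3, 5 and 3 with the block). They were DUSP5, a MAP kinase phosphatase (1.41 ± 0.21, adjusted p = 0.00663; 1.23 without YTHDF2 RIP replicate 3), CEBPA, a transcription factor (0.91 ± 0.24, 0.0373; 1.06), and LATS1, a Hippo pathway kinase (-0.68 ± 0.17, 0.0307; -0.56). CEBPA missed the threshold without YTHDF2 RIP replicate 1 (0.158) or 2 (0.0980) or any one YTHDF3 library (0.0668 to 0.124), and LATS1 without YTHDF2 RIP replicate 1 (0.116) or any one YTHDF3 library (0.0933 to 0.10). Antisense RNAs overlap 25.3% and 18.5% of the exonic bases of CEBPA. MYC (0.12 ± 0.24), BCL2 (0.04 ± 0.16), SON (-0.40 ± 0.30) and CREBBP (-0.30 ± 0.24), genes often used as m6A examples, were not called, with adjusted p of 0.759, 0.893, 0.410 and 0.443, and were at 0.36, -0.01, -0.11 and -0.11 without YTHDF2 RIP replicate 3.

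Of mRNAs used as controls with little m6A, 4 of 9 were called higher with YTHDF2 and 0 with YTHDF3 (median 0.72), and 8 of 9 without YTHDF2 RIP replicate 3 (median 0.86), or 1, 4, 2, 1 and 2 with the others left out in turn. HPRT1, a purine salvage enzyme, was at 47.8, 46.3 and 52.8 CPM with YTHDF2 and at 30.9, 28.1 and 19.0 CPM with YTHDF3 (0.91 ± 0.20, adjusted p = 0.0195; 0.86 ± 0.20 without that library). PPIA, a prolyl isomerase, was at 205, 191 and 122 CPM against 89.2, 88.0 and 77.6 CPM (1.02 ± 0.21, adjusted p = 0.0171; 1.22 ± 0.14 without it). Neither overlapped, but HPRT1 missed the threshold without YTHDF2 RIP replicate 1 or YTHDF3 RIP replicate 2 (0.0849 and 0.0782) and PPIA without YTHDF2 RIP replicate 1 or any YTHDF3 library (0.0718 to 0.104). GAPDH (0.57 ± 0.36, adjusted p = 0.320) and ACTB (0.37 ± 0.30, 0.435) overlapped between antibodies and were not called with all 6 libraries, but were without YTHDF2 RIP replicate 3 (0.91 ± 0.21, 0.0173, and 0.66 ± 0.18, 0.0321).

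Genes of mRNA decay, the function most tied to YTHDF2, were called in both directions. Their shares with all 6 libraries are likewise to be read beside the 11.2% and 7.59% of protein-coding genes. Counts of other runs are to be read beside the calls of the same run over all genes. CCR4-NOT subunits gave 1 and 3 of 15 (median -0.25; 1 and 2 without YTHDF2 RIP replicate 3, and 0 and at most 1 with any other library left out), with CNOT10 at -0.91 ± 0.17 (adjusted p = 0.0133), CNOT2 at -0.53 ± 0.14 (0.0404) and CNOT9 at -0.48 ± 0.13 (0.0467). They were at -0.81, -0.52 and -0.42 without YTHDF2 RIP replicate 3. Leaving out single libraries raised these to as much as 0.0753 for CNOT10, 0.169 for CNOT2 and 0.189 for CNOT9, and CNOT9 was no longer called without YTHDF2 RIP replicate 3 (0.0510). Decapping and P-body genes gave 1 and 2 of 17 (median 0.06, and -0.04 under total counts; 4 and 3 without that library, 3 and 3 with the block). LSM14B, an RNA granule protein, was at 1.03 ± 0.15 (adjusted p = 0.00585), PATL1, a decapping activator, at -1.21 ± 0.24 (0.0146) and PAN2, a deadenylase, at -0.51 ± 0.13 (0.0349), and at 0.96, -0.97 and -0.52 without YTHDF2 RIP replicate 3. PATL1 and PAN2 reached 0.0680 and 0.150 with single libraries left out. Stress granule genes gave 0 and 2 of 16 (median -0.13; 2 and 2 without that library, 3 and 4 with the block). CAPRIN1 was at -0.92 ± 0.22 (0.0285), the poly(A)-binding protein gene PABPC1 at -0.80 ± 0.21 (0.0377) and FXR2 at 0.59 ± 0.18 (0.0631), and they were at -0.72, -0.64 and 0.69 without YTHDF2 RIP replicate 3. CAPRIN1 and PABPC1 reached 0.110 and 0.119 with single libraries left out, and FXR2 was called with the block (0.0112) and without YTHDF2 RIP replicate 3 (0.0216).

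Other protein-coding lists had calls towards either antibody, both or neither. With all 6 libraries several had shares near or below the 11.2% and 7.59% of all protein-coding genes. Immediate-early genes gave 4 and 0 of 27 (median 0.26), and 9 and 0 without YTHDF2 RIP replicate 3. With the others left out in turn 2, 4, 2, 2 and 2 were called higher with YTHDF2. IER2 led at 168, 167 and 143 CPM against 61.8, 50.9 and 39.1 CPM (1.65 ± 0.19, adjusted p = 0.00410). JUND followed at 136, 127 and 160 CPM against 65.4, 58.6 and 51.0 CPM (1.27 ± 0.16, 0.00450). In both genes the antibodies were separated without overlap. Without YTHDF2 RIP replicate 3 they were at 1.73 ± 0.19 and 1.18 ± 0.15. Antisense RNAs overlap 30.7% and 21.5% of the exonic bases of IER2, so its counts are uncertain. SR splicing factors gave 4 and 0 of 17 (median 0.29; 6 and 1 without YTHDF2 RIP replicate 3, 6 and 2 with the block), led by SRSF9 (1.72 ± 0.22, 0.00468; 46.7% of its exonic bases overlap GATC) and TRA2A (1.22 ± 0.17, 0.00513), at 1.51 and 1.07 without YTHDF2 RIP replicate 3, and 2 or 3 were called higher with YTHDF2 with any other library left out. In the Wnt pathway 2 and 3 of 27 were called (median -0.05, and 0.10 without YTHDF2 RIP replicate 3 with counts of 4 and 3; 6 and 4 with the block). CTNNB1, which codes for beta-catenin, was at 1009, 911 and 1209 CPM against 517, 450 and 417 CPM (1.18 ± 0.18, 0.00704). Its nuclear partner LEF1 was at 34.1, 36.4 and 30.01 CPM against 81.4, 78.8 and 97.5 CPM (-1.36 ± 0.15, 0.00383). The 2 were thus recovered in opposite directions, by 1.06 ± 0.16 and -1.28 ± 0.15 without YTHDF2 RIP replicate 3, and CTNNB1 missed the threshold without YTHDF3 RIP replicate 2 (0.0536).

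S phase genes gave 8 and 3 of 39 (median 0.27; 15 and 3 without YTHDF2 RIP replicate 3, 15 and 4 with the block, and 0 and 0, 5 and 3, 2 and 1, 0 and 1, and 2 and 1 with the other libraries left out in turn). PCNA, the sliding clamp of replication, was at 63.6, 71.5 and 48.7 CPM with YTHDF2 and at 120, 121 and 150 CPM with YTHDF3 (-1.09 ± 0.19, adjusted p = 0.00923), while RFC2, a subunit of its loader, was at 48.5, 42.4 and 42.8 CPM against 27.1, 24.9 and 23.7 CPM (0.82 ± 0.14, 0.00897). PCNA and RFC2 were therefore on opposite sides, at -0.94 ± 0.16 and 0.85 ± 0.14 without that library. PCNA missed the threshold without YTHDF2 RIP replicate 1 (0.0533) and RFC2 without YTHDF2 RIP replicate 1 or YTHDF3 RIP replicate 1 or 2 (0.0710, 0.0570 and 0.0634). G2/M genes gave 2 and 4 of 26 (median -0.23; 6 and 5 without that library, 3 and 7 with the block), with BIRC5, or survivin, at 1.35 ± 0.18 (0.00471) and the spindle motor gene KIF11 at -1.28 ± 0.20 (0.00775), and at 1.32 and -1.13 without that library. With the others left out in turn the G2/M counts were 1 and 1, 2 and 8, 1 and 1, 1 and 1, and 1 and 2.

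Translation initiation factors gave 8 and 5 of 54 (median 0.08, and -0.04 under total counts; 14 and 5 without YTHDF2 RIP replicate 3, 12 and 8 with the block), with EIF4EBP2, a repressor of the cap-binding protein, at -1.03 ± 0.15 (adjusted p = 0.00583; -1.02 without YTHDF2 RIP replicate 3). With the others left out in turn the counts were 1 and 1, 4 and 6, 2 and 1, 1 and 1, and 2 and 5, and the median was -0.14 without YTHDF2 RIP replicate 2. Solute carriers gave 14 and 13 of 241 (median 0.00; 29 and 25 without that library, 43 and 34 with the block), led by SLC25A4, the ADP/ATP carrier of mitochondria (1.66 ± 0.20, 0.00424; 1.70 without it), and SLC25A3, the phosphate carrier (1.17 ± 0.16, 0.00556; 1.23 without it), with counts of 5 and 2, 9 and 7, 6 and 3, 5 and 2, and 7 and 5 with the others left out in turn. Heat shock chaperones gave 2 and 0 of 18 (median 0.07, and -0.04 under total counts), 4 and 0 without YTHDF2 RIP replicate 3 (median 0.33), 1 and 0 without YTHDF2 RIP replicate 2 (median -0.22), and 0 and 0 without YTHDF2 RIP replicate 1 or any one YTHDF3 library. Interferon-stimulated genes gave 0 and 1 of 13 (median 0.23, and 0.08 without YTHDF2 RIP replicate 3), which was IFIT5 (-1.84 ± 0.21, 0.00383; -1.90). Protocadherins and cadherins gave 0 and 0 of 54 (median -0.30, and -0.42 without that library with 0 and 1). Olfactory receptor genes gave 0 and 0 of 6 (median 0.33, and -0.21 without it). Markers gave 0 and 1 of 8 for HEK293 cells, where PAX2 was at -1.22 ± 0.21 (-1.20 without YTHDF2 RIP replicate 3; adjusted p = 0.0102, and 0.0532 without YTHDF2 RIP replicate 1), and 0 and 0 of 3, 4 and 2 for blood, fibroblast, and hepatocyte and epithelial cells. With the block the 4 fibroblast markers gave 2 calls, COL3A1 (1.29, 0.0157) and COL1A1 (0.40, 0.0472), higher with YTHDF2.

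Among noncoding RNAs, all 8 tested genes for 5.8S ribosomal RNA were called higher with YTHDF2 (median 4.04; 3.00 without YTHDF2 RIP replicate 3, all 8 called). Reads that match several of these copies count for each, so the 8 are not separate measurements. Counts of noncoding genes are to be read beside all genes tested. Of these, 9.11% were called higher with YTHDF2 and 6.02% higher with YTHDF3 with all 6 libraries. RNA5-8SN4 was at 33.6, 122 and 262 CPM with YTHDF2 and at 5.10, 3.52 and 9.14 CPM with YTHDF3 (4.56 ± 0.73, adjusted p = 0.00790; 3.72 ± 0.62 without that library), and RNA5-8SN5 at 86.4, 173 and 545 CPM against 9.18, 7.24 and 32.0 CPM (4.05 ± 0.82, 0.0164; 3.01 ± 0.68 without it). No overlap between the groups was a condition of the choice of these genes, and replicate 3 was the highest library of each antibody. RNA5-8SN5 missed the threshold without YTHDF3 RIP replicate 1 or 2 (0.0589 and 0.0712). These libraries were depleted of ribosomal RNA, so what was counted is what depletion left, and its part in the result was not tested. The 3 genes of 7SL, the RNA of the signal recognition particle, were also called higher with YTHDF2, and were named after their values had been seen. RN7SL1 was at 1184, 527 and 597 CPM against 281, 393 and 322 CPM (1.21 ± 0.32, adjusted p = 0.0371; 1.37 without YTHDF2 RIP replicate 3).

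U1, the small nuclear RNA that recognises the 5′ splice site, has many near-identical gene copies and variants, and these went both ways. Of 27 tested, 7 were called higher with YTHDF2 and 10 higher with YTHDF3 (11 and 11 without YTHDF2 RIP replicate 3, 12 and 10 with the block). The main gene RNU1-2 (ENSG00000207005, GRCh38 chr1:16895980-16896143) was at 36.3, 33.8 and 106 CPM with YTHDF2 and at 201, 371 and 241 CPM with YTHDF3 (-2.21 ± 0.46, adjusted p = 0.0183; -2.95 ± 0.28 without that library). YTHDF2 RIP replicate 3 was here the YTHDF2 library nearest to the YTHDF3 libraries. RNVU1-7, RNVU1-29 and RNVU1-18 had nearly the same values, between -2.22 and -2.19 (-2.98 to -2.91 without YTHDF2 RIP replicate 3), because reads that match several copies count for each. All 4 missed the threshold without YTHDF2 RIP replicate 1 (0.0676 to 0.0700) or YTHDF3 RIP replicates 2 and 3 (0.0535 to 0.0742). Against these, the variant RNVU1-14 was at 42.3, 25.6 and 29.4 CPM against 6.19, 5.89 and 4.03 CPM (2.59 ± 0.25, 0.00352; 2.66 ± 0.25 without that library), with all of its bases inside the lncRNA ENSG00000276216, which had the same fold change (2.59). RNVU1-27 (2.20 ± 0.22, and 2.30 without it) and RNVU1-15 (2.54 ± 0.32 and 2.72) were called in that direction too, without overlap between antibodies. Over the whole list of spliceosomal, 7SL, 7SK, Y, RNase P and MRP RNAs, 13 of 89 were called higher with YTHDF2 and 9 with YTHDF3 (median 0.29, and -0.10 without YTHDF2 RIP replicate 3 with 21 and 11 calls; 24 and 9 with the block; 4 and 0, 9 and 9, 4 and 9, 4 and 0, and 5 and 2 with the others left out in turn). The U1 count above also takes in genes this list leaves out.

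**Figure D4:**
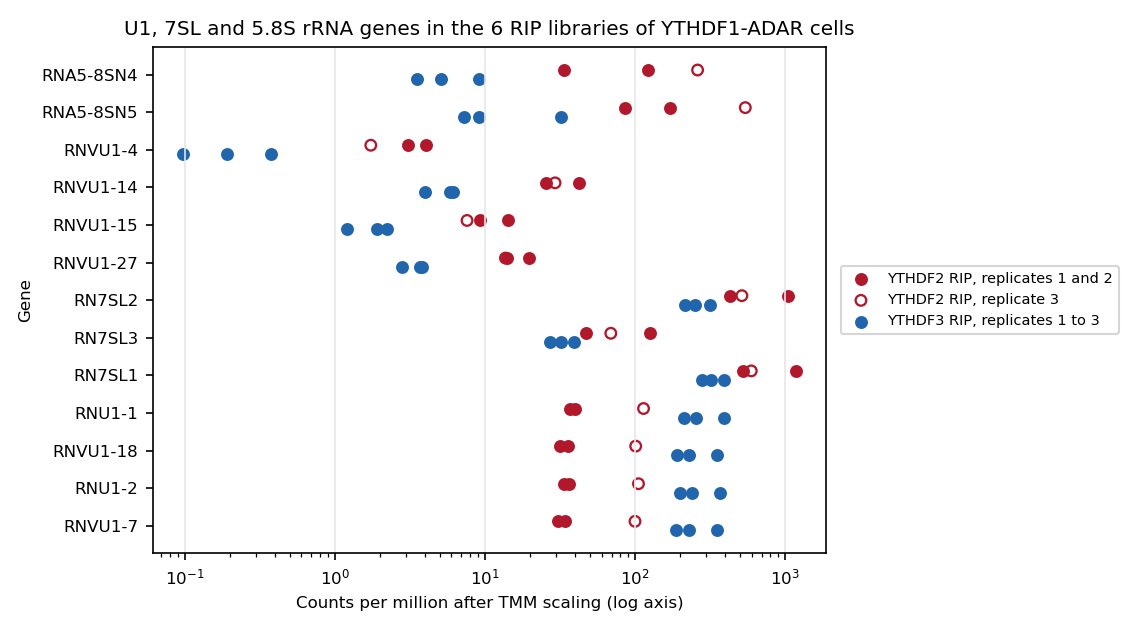
CPM after TMM scaling (log axis) of U1 copies, U1 variants, 7SL and 5.8S rRNA genes in each library, with YTHDF2 RIP in red (replicate 3 hollow) and YTHDF3 RIP in blue. The copies RNU1-1, RNU1-2, RNVU1-7 and RNVU1-18 lie to the right with YTHDF3, and RNVU1-4, RNVU1-14, RNVU1-15, RNVU1-27, 7SL and 5.8S genes with YTHDF2.

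MALAT1, a nuclear lncRNA (ENSG00000251562, GRCh38 chr11:65497688-65506516), was at 2784, 3333 and 1241 CPM with YTHDF2 and at 898, 835 and 572 CPM with YTHDF3 (1.67 ± 0.36, adjusted p = 0.0204; 2.0 ± 0.22 without YTHDF2 RIP replicate 3). The groups did not overlap, and replicate 3 was the lowest of each. The call was lost without YTHDF2 RIP replicate 1 (0.0954) or any YTHDF3 RIP library (0.0699 to 0.0887). With all 6 libraries, 4.86% of all 5310 lncRNA genes were called higher with YTHDF2 and 3.84% higher with YTHDF3. For all 261 snoRNA genes these shares were 6.90% and 4.98%, and the lists below are to be read beside them. Of 11 nuclear lncRNAs 2 were called higher with YTHDF2 and 1 with YTHDF3 (median 0.53, and 0.29 without that library; 5 and 1 with the block), HOTAIR being the latter (-0.79 ± 0.20, 0.0318; -0.76 without that library; up to 0.129 with single libraries left out). LINC genes gave 10 and 12 of 300 (median 0.12, and -0.06 without YTHDF2 RIP replicate 3 with 14 and 28 calls; 19 and 20 with the block; 1 and 1, 8 and 2, 2 and 4, 0 and 0, and 3 and 2 with the others left out in turn). Small nucleolar and Cajal body RNAs gave 17 and 11 of 254 (median 0.18, and -0.03 without that library with 27 and 18 calls; 44 and 23 with the block; 3 and 3, 13 and 10, 5 and 4, 1 and 3, and 6 and 10 with the others left out in turn), and their host genes 5 and 3 of 29 (median 0.39; 8 and 3 without that library, 11 and 3 with the block; 0 and 1, 3 and 4, 0 and 1, 0 and 1, and 2 and 2 with the others left out in turn). SNHG4 was at 34.7, 34.5 and 32.2 CPM against 88.0, 95.3 and 71.8 CPM (-1.33 ± 0.15, 0.00388; -1.29 without that library). SNORD19B (-1.76 ± 0.24, and -1.79 without it) and the SNORD22 copies (-1.18 ± 0.17 and -1.43 ± 0.21, and -1.14 and -1.36) lie wholly inside exons of GNL3 and SNHG1, so their counts cannot be told from those of the hosts (-0.72 and -0.89).

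The called protein-coding genes differed in length, which the contrast did not use. The median exonic length, summed over all annotated exons, was 3704 bases for the 1664 genes called higher with YTHDF2, 6194 bases for the 1123 called higher with YTHDF3 and 5039 bases for all 14798 tested. Genes of a single exon block made up 5.83%, 1.07% and 3.00% of these. The median fold change fell with length, from 0.43 for 369 genes under 1000 bases through 0.04 for 3557 genes of 4000 to under 6000 bases to -0.16 for 3317 genes of 8000 bases or more. Of the shortest genes 18.4% were called higher with YTHDF2 and 1.90% with YTHDF3, and of the longest 4.73% and 10.7%. Without YTHDF2 RIP replicate 3 the medians of the shortest and longest genes were 0.47 and -0.18. How far length and gene group each go with the fold change was not tested.

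**Figure D5:**
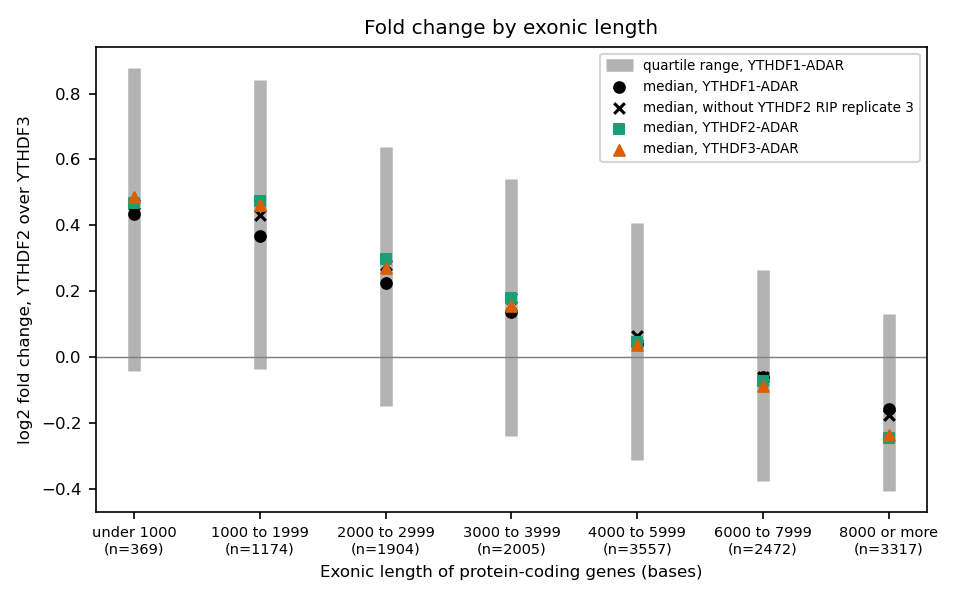
Log2 fold change (YTHDF2 over YTHDF3) of protein-coding genes by exonic length in bases, as medians in the 3 lines and without YTHDF2 RIP replicate 3, with grey bars for the quartile range in YTHDF1-ADAR cells. The medians fall from 0.43 under 1000 bases to -0.16 at 8000 bases or more in YTHDF1-ADAR cells, from 0.47 to -0.25 in YTHDF2-ADAR cells and from 0.49 to -0.24 in YTHDF3-ADAR cells.

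The same contrast was read in lines that carry the other fusions, from separate libraries. In YTHDF2-ADAR cells 6725 of 22588 genes were called (29.8%; 16.3% higher with YTHDF2 and 13.5% with YTHDF3) and in YTHDF3-ADAR cells 4737 of 22418 (21.1%; 11.9% and 9.26%). Of the genes called in YTHDF1-ADAR cells, 2758 were called in the same direction in YTHDF2-ADAR cells (76.1% of the calls in YTHDF1-ADAR cells and 41.0% of those in YTHDF2-ADAR cells) and 2391 in YTHDF3-ADAR cells (66.0% and 50.5%). None was called in the opposite direction in either. In all 3 lines 1333 genes were called higher with YTHDF2 and 808 higher with YTHDF3. ATP5MG was at 3.09 and 2.73 in the other lines, UCP2 at -2.68 and -2.44, H4C8 at 2.22 and 2.14, RNVU1-14 at 2.80 and 2.56, and RNU1-2 at -4.48 and -2.60. Other named genes were not called in every line. H4C2 was at 1.62 in YTHDF2-ADAR cells (edgeR adjusted p = 0.0653) and at 2.18 in YTHDF3-ADAR cells (0.000660). HOTAIR was at -0.02 (0.951) and 0.05 (0.887), and PABPC1 at -0.27 (0.201) and -0.20 (0.445).

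No gene differed between YTHDF1-ADAR cells and the mean of the other lines in edgeR's test of the difference (0 of 25557, 0%; 1687 at an unadjusted p under 0.05; smallest adjusted p 0.267), while DESeq2 called 5, which were HNRNPA3, its pseudogenes HNRNPA3P6, HNRNPA3P3 and HNRNPA3P5, and SNRPA1. HNRNPA3P6, a processed pseudogene, was at 27.4, 31.4 and 43.6 CPM with YTHDF2 and at 9.53, 9.42 and 8.35 CPM with YTHDF3 (1.90 ± 0.20; 1.69 without YTHDF2 RIP replicate 3), against fold changes of 0.22 and -0.10 in the YTHDF2-ADAR and YTHDF3-ADAR lines. The difference was 1.77 ± 0.31 (edgeR adjusted p = 0.267; DESeq2 adjusted p = 0.000283). Its reads cannot be told apart from those of its parent HNRNPA3, an RNA-binding hnRNP protein gene, which was at 1.08 ± 0.15 here and at 0.48 and 0.18 there. SNRPA1, a U2 snRNP protein gene, was at -0.16 ± 0.15 here and at 0.61 and 0.44 there (difference -0.77 ± 0.15; edgeR 0.421, DESeq2 0.00328). MALAT1 was at 1.67 here and at 0.47 and 0.42 there, a difference of 1.14 ± 0.53 that did not pass (edgeR adjusted p = 0.756).

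Editing by the fusion was read from the authors' deposited values, in which replicates are pooled, so that it has no error of its own. The level is the deposited score of a gene divided by its number of edited sites, as a percent; the sources used here do not define the score, and this reading of it rests on its values. Of genes called higher with YTHDF2, 46.6% had an edited site listed, of those called higher with YTHDF3 49.1%, and of those not called 29.7%. Genes not called were also lower in level. Among protein-coding genes their median log2 CPM was 4.31, against 4.91 and 5.23 for those called higher with YTHDF2 and with YTHDF3. How far the level and kind of a gene go with these shares was not tested. The median editing level was 3.00% in YTHDF2 RIP and 2.66% in YTHDF3 RIP over 1016 genes called higher with YTHDF2, and 3.92% and 3.65% over 708 genes called higher with YTHDF3. Over all 7765 genes with values it was 3.41% and 3.19%, and 2.52% in input. In both gene sets the authors' level was thus higher in YTHDF2 RIP than in YTHDF3 RIP. It was higher among genes recovered more with YTHDF3 in both RIPs and in input (2.97% against 2.15%). SIX2, with 29 sites, was at 5.85% in YTHDF2 RIP and 4.68% in YTHDF3 RIP, and IER2, with 38 sites, at 2.30% and 2.38%.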

How the data were processed

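Per the labels, RNA was recovered by RIP, depleted of ribosomal RNA and sequenced with a directional kit. The deposited counts per gene are raw; per the file headers the authors counted with featureCounts 2.0.1 on the Ensembl 102 annotation (GRCh38), without a strand option and with reads that match several places or overlapping genes counted in full, and per the submitters' processing notes aligned with STAR 2.7.7. Near-identical, overlapping and antisense genes are therefore uncertain. The deposited log2 fold changes per antibody came with DESeq2, per the submitters' processing notes; their control is not named in the file headers. The authors deposited an editing score per gene with replicates pooled.

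Genes with enough counts for edgeR's default filter were tested (23940 of 60675; 1 non-human entry was left out). TMM scaling and edgeR 4.0.16 (quasi-likelihood, Benjamini-Hochberg over all genes tested) in R 4.3.3 compared 3 with 3 libraries; the standard error is the size of the log2 fold change over the root of F. The fit was tested on simulated data. DESeq2 1.42.0, other scalings, no filter, all 12 groups in 1 model, a replicate block and leaving out each library were tried. Deviations from the group means correlated over genes at 0.32, 0.17 and 0.48 for same-numbered libraries, which set the block; those of replicates 1 and 2 with each other did as well (0.25 and 0.29), and those of replicate 3 with the others did not (-0.40 to -0.27). The labels state no pairing.

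Of genes called with and without YTHDF2 RIP replicate 3, that had a symbol, no overlap and a log2 CPM averaging 4 or more, the 12 highest and 12 lowest protein-coding and the 4 highest and 4 lowest other genes were named, with up to 3 of smallest p per list, a set always named and, for the lines, the 5 of smallest p. The members and the 36 gene lists were chosen with earlier results of these data known. Symbols came from the authors' table for 40818 genes and the reference for 1276; the other 18581 have none.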

Additional observations from a re-analysis of the deposited data

How the results depend on the processing

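Among the called genes that the naming rule gives, none changed direction under any alternative run. The count of 3623 fell to 335 (274 higher with YTHDF2 and 61 with YTHDF3) with scaling to mitochondrially encoded mRNAs, and rose to 6114 (3403 and 2711) in a model of all 12 groups; DESeq2 called 5034, with 2278 higher with YTHDF3. Without any filter 3265 genes were called, 45.5% of them higher with YTHDF2. The cause was not tested. Leaving out 1 library at a time gave 810 to 5667 calls, 483 to 3517 higher with YTHDF2 and 327 to 2150 higher with YTHDF3. With the replicate block the counts were 6327, 3751 and 2576, and with the block but without replicate 3 of both antibodies 6786, 3995 and 2791. Of 110 called genes among the 149 named, the block kept all 110 and added 10, those given beside their lists and CDH24 (-0.58, adjusted p = 0.0212), OR2B2 (1.58, 0.0377), VIM (0.67, 0.0203), LIN28B (-0.54, 0.0316) and METTL17 (-0.53, 0.0213); it changed no other call of a named gene. DESeq2 kept 110, total counts 108, no filter 97 and mitochondrial scaling 48, and leaving out 1 library kept 64 to 109. For the difference between lines, edgeR called 179 genes without a filter and DESeq2 5, against 0, and the smallest adjusted p ran from 4.22e-22 to 0.990. A RIP gives shares, so that a change in the total RNA bound cannot be told apart from none.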

Other observations

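Calls by kind of gene are to be read beside 9.11% higher with YTHDF2 and 6.02% higher with YTHDF3 over all genes. Of 14798 protein-coding genes, 11.2% and 7.59% were called (median 0.03, and 0.04 without YTHDF2 RIP replicate 3). Of 1490 processed pseudogenes, copies of mRNAs without introns whose reads can be those of the parent gene, 8.72% and 1.68% were called (median 0.42, and 0.10 without YTHDF2 RIP replicate 3). The shares were 4.86% and 3.84% of 5310 lncRNA genes (median 0.10, and -0.03 without that library) and 7.07% and 2.89% of 311 miRNA genes (median 0.03, and 0.05 without it).

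METTL17 (-0.54 ± 0.18 in YTHDF1-ADAR cells, 0.46 and 0.31 in the YTHDF2-ADAR and YTHDF3-ADAR lines) and GAS5-AS1 (-0.93 ± 0.15, 0.07 and 0.50) had the largest differences between lines in the direction of YTHDF3 among the 5 genes of smallest p, -1.01 ± 0.23 and -1.29 ± 0.31, and neither passed edgeR's test of the difference (adjusted p = 0.740 for both).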
